A study of Mus musculus with 6 samples.

Results

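Dense clusters of ATAC-seq peaks were examined in untreated mESCs. They were runs of accessible sites that lie close together along a chromosome. ATAC-seq peaks on chromosomes 1 to 19 were joined wherever the gap from the end of one peak to the start of the next was at most 12 kb and 500 bp, and a joined group of 5 or more peaks was kept as a dense cluster. The members were thus chosen by the positions of the peaks alone, and the largest gap inside a cluster was 12498 bp. This gave 798 dense clusters, which hold 4953 of the 40228 autosomal peaks (12.3%) and 12.1% of all 41014 peaks of the list. The libraries came from V6.5 cells, a mouse embryonic stem cell line, in 2 replicates labelled as untreated. Their labels also carry a text on degron cells given doxycycline, which all samples of the study share and which does not match these fields. The cell line and treatment fields were followed here. The cells were grown with LIF on irradiated mouse embryonic fibroblasts, so that the labelled material can include feeder cells. The authors deposited 1 peak list for both replicates, with a position and a score for each peak, so no value per replicate and no depth can be given, and no test between samples was possible. The score is a whole number from 540 to 953 whose scale the sources used here do not define. From its values alone it may be the scaled output of the IDR software, which measures how well replicates rank a peak alike, and a score is then no measure of how open a site is. It was used only to compare peaks within the list. A peak was placed at a promoter when it lay within 1 kb of a transcription start site (TSS) of a RefSeq transcript, and genes and sequence were those of RefSeq on GRCm38 (mm10). The other 4 samples of the study (ZBTB21 degron cells at 0 and 6 h, 2 replicates each) were not analysed here.

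ATAC-seq uses the Tn5 transposase, which cuts and tags DNA where nucleosomes leave it exposed, and a peak marks a stretch that is cut more than its surroundings. Accessible stretches are found at promoters, at enhancers and at sites bound by architectural proteins, and at genes that RNA polymerase III transcribes, such as those for tRNAs. Enhancers of genes that set cell identity often lie in series. The stitching distance used here is one that is often used to join neighbouring enhancers, but the rule used only peak positions and no histone mark or factor, so a dense cluster is not by that fact an enhancer of any kind.

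Several kinds of sequence lay in these clusters. The first set shows tRNA genes, because they were the gene type with the largest share of genes in dense clusters among the 6 types counted. They come from 2 clusters of chromosome 13, the one with the most peaks at tRNA genes (10) and the first along the chromosome of the 2 that tie at 7. From each, up to 3 genes of different sequence were taken in order of position among those with a peak within 200 bp of their start and a match to the B box. Each is printed whole, 5′ to 3′ on its own strand. Capitals mark the B box (GTTCNANNC), the internal promoter element that the polymerase III factor TFIIIC binds. These genes were chosen after the values were seen. RefSeq names a nuclear tRNA gene by the letter of its amino acid and its anticodon.
n-TItat14, chr13:21896938-21897031, minus strand: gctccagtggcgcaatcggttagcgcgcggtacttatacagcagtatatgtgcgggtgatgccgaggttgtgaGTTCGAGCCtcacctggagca
n-TKttt23, chr13:21907940-21908012, plus strand: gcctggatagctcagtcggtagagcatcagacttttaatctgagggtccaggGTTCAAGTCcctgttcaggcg
n-TLcaa2, chr13:21914838-21914943, plus strand: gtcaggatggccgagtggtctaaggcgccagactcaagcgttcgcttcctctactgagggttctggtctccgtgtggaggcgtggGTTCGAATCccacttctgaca
n-TRccg3, chr13:21215458-21215530, minus strand: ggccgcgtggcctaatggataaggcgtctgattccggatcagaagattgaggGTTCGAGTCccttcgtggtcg
n-TAagc16, chr13:21222586-21222657, plus strand: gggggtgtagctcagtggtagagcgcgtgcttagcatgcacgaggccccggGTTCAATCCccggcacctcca
n-TAtgc11, chr13:21240945-21241016, plus strand: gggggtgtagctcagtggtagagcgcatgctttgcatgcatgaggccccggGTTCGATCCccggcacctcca
The 6 genes code for tRNAs of isoleucine, lysine, leucine, arginine and alanine. Of the 386 autosomal tRNA genes in RefSeq, 354 (91.7%) hold this run of letters on their own strand, and 97 of the 105 that start in a dense cluster do.

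The second set shows the middle 200 bp of peaks that overlap no exon, with matches to 8 short motifs in capitals. For each of the 8 clusters with most peaks, the highest-scored such peak was taken. The 4 that hold a match are printed, and the peaks chosen at H4c4, Trmt1, Irf1 and Gna15 held none. A match says only that these letters are present. The last line was chosen after the values were seen, as the peak outside exons with an octamer (ATGCAAAT, bound by OCT4 and other POU factors) in a cluster that holds the TSS of a pluripotency gene.
cluster at Zscan10, KLF motif, chr17:23617188-23617387, plus strand: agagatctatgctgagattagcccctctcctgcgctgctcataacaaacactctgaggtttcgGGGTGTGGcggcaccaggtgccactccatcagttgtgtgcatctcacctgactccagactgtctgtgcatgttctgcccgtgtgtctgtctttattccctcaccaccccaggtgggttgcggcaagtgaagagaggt
cluster at Ryr1, CCAAT, chr7:29063721-29063920, plus strand: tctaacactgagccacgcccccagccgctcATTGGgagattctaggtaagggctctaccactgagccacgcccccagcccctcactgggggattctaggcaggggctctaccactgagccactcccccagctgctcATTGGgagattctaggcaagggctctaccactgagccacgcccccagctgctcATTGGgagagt
cluster at Actb, AP-1 motif, chr5:142920918-142921117, plus strand: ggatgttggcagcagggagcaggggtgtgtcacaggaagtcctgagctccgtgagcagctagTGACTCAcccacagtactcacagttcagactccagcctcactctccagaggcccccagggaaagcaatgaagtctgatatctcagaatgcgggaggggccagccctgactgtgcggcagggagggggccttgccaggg
cluster at Trim71, TEAD motif, chr9:114528218-114528417, plus strand: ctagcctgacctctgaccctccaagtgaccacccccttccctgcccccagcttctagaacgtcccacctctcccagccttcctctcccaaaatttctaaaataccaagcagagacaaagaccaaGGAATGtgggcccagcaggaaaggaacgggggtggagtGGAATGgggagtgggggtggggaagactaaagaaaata
cluster at Dppa3, octamer, chr6:122624591-122624790, plus strand: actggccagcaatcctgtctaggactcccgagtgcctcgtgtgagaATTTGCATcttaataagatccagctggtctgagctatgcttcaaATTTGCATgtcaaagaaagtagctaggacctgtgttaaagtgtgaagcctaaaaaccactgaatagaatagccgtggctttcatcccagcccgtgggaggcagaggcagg
The middle of the Dppa3 peak holds the octamer in 2 places. Among the non-exonic peaks of the 7 clusters that hold the TSS of a listed pluripotency gene, it was the 1 peak with this motif in its middle 200 bp. In the Ryr1 peak, CCAAT recurs on the opposite strand within a stretch that is repeated in tandem.

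Most joined groups were small. The list gave 16664 single peaks and 856 groups of 4 peaks, against 365 clusters of 5, 193 of 6 and 106 of 7. At the far end, 37 clusters held 10 or more peaks, with 417 peaks in all, and 1 cluster held 15. The clusters spanned 7.52 to 104 kb, with a median of 31.0 kb and quartiles of 24.3 and 39.4 kb. Together they covered 26.1 Mb, or 1.09% of the sequenced bases of the autosomes. Inside them the median gap between neighbouring peaks was 5364 bp, whereas the median over all neighbouring autosomal peaks was 19.6 kb. These figures follow from how the clusters were chosen and describe them only.

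**Figure D1:**
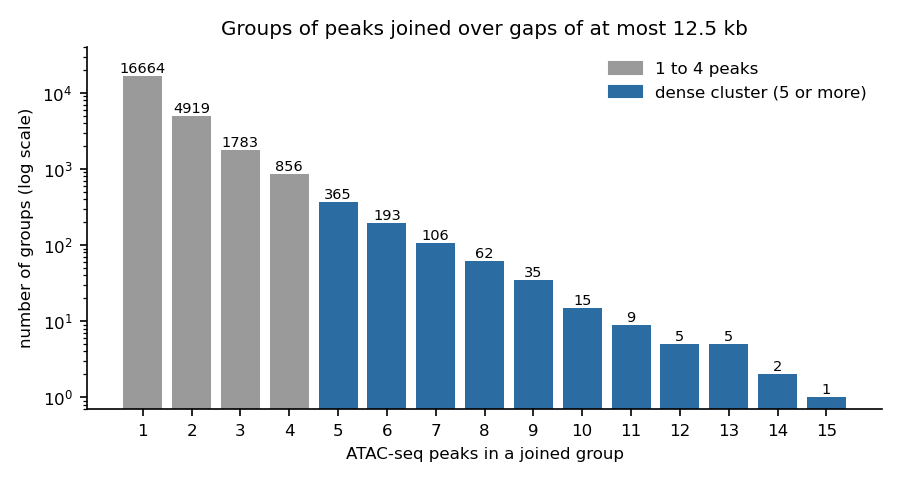
Number of joined groups (log scale) by the number of ATAC-seq peaks in the group. Grey bars are groups of 1 to 4 peaks and blue bars the 798 dense clusters, which run from 365 clusters of 5 peaks to 1 cluster of 15.

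Neither threshold fell at a break in the data. Groups of 4, just outside, had a median span of 19.3 kb, a median score of 698 and 14.9% of their peaks at promoters. Clusters of 5, just inside, had a median span of 25.01 kb, a median score of 702 and 14.8% at promoters. Over the autosomes 428 gaps measured from 12 kb to the limit of joining and 394 gaps measured more than that limit and up to 13 kb.

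The cluster with most peaks, chr17:23533981-23617475, had 15 peaks over 83.5 kb at Zfp13, Zfp213 and Zscan10. All of these code for zinc finger proteins, and Zscan10 is a transcription factor known from embryonic stem cells. Its 15 peaks scored between 562 and 923, with a median of 700. The highest lay at a promoter. The first 6 peaks of the cluster, all in its first 17 kb, lay within 200 bp of the start of a tRNA gene and scored 562 to 820. None of the other 9 peaks did so.

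The next pair of clusters had 14 peaks each. At chr7:29052516-29137917, 13 of the 14 peaks lay in the bodies of Ryr1, the calcium release channel of skeletal muscle, and Rasgrp4, an activator of Ras, and the median score was 769.5. Only 2 of these peaks lay at promoters. The cluster at chr5:142879444-142974273 held Fbxl18, Fscn1 and Actb, the genes of an F-box protein, the actin bundler fascin and beta-actin. It had 1 promoter peak among its 14 and a median score of 704.5. In both clusters most peaks lay away from promoters.

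Clusters of 13 peaks were found at Trim71 and Ccr4, at histone genes, at Trmt1, Ier2 and Nacc1, at Irf1, and at Gna15, Gna11 and Tle2. Trim71 codes for an RNA-binding ubiquitin ligase of stem cells. All 13 peaks of its cluster (chr9:114498370-114557464) lay in gene bodies and none at a promoter. Their scores ran from 630 to 916, with a median of 700. At Irf1, an interferon-regulated transcription factor, 2 of 13 peaks lay in the gene, 1 of them at the promoter, and the others outside protein-coding genes. The cluster at the G protein genes Gna15 and Gna11 and the corepressor gene Tle2 was the longest of all (104 kb) and had a median score of 679.

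Clusters of 12 peaks lay at Abt1 and Btn1a1, at Il17rd, at Rbms2 and Baz2a, at Hmgxb4 and Tom1, and at Ehmt2, Slc44a4 and Zbtb12. Il17rd codes for an inhibitor of FGF signalling. Of the 12 peaks at its locus, 8 lay in its body, 1 of them at the promoter, and the 12 scored 566 to 839. Ehmt2 codes for the histone H3 lysine 9 methyltransferase G9a. Its cluster had the most promoter peaks of these 5 (6 of 12) and the highest median score of them (773). The cluster at Abt1 had the lowest median score of the 20 clusters with most peaks (669.5).

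Of the 9 clusters of 11 peaks, the 7 shortest completed these 20, since ties in the number of peaks were ordered by span. They lay at Nosip, Rcn3 and Prrg2, at Commd7, at Myh14, at Etv5, and at Arhgef2, Ubqln4 and Ssr2, and 2 of them overlapped no protein-coding gene of RefSeq. At Myh14, which codes for a non-muscle myosin heavy chain, all 11 peaks lay in the gene body. The cluster at Arhgef2 had the highest median score of the 20 (796). One cluster without a gene (chr13:21896712-21940585) was a row of tRNA genes and lay 4.51 kb from the nearest protein-coding TSS, of Zfp184. The other (chr16:8762756-8811209) lay 18.9 kb from the nearest protein-coding TSS, of 1810013L24Rik, and its 11 peaks scored 555 to 828. Of the 20 clusters 13 overlapped 2 or more protein-coding genes, against 284 of all 798 clusters.

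tRNA genes stood in dense clusters more often than any of the other 5 gene types counted. Of 386 autosomal tRNA genes, 105 (27.2%, 95% Wilson interval 23.0 to 31.8) started in a dense cluster. The shares were 4.14% of 20558 protein-coding genes (3.88 to 4.42), 2.95% of 12322 lncRNA genes (2.66 to 3.26), 5.72% of 1136 miRNA genes (4.51 to 7.23), 3.76% of 1276 snoRNA genes (2.85 to 4.95) and 2.16% of 924 snRNA genes (1.41 to 3.32). Over the 6 types together it was 3.97%. The intervals cover counting error only, and neighbouring genes are not independent. tRNA genes themselves lie in rows, and 105 of the 386 are on chromosome 13. There 65 of the 105 (61.9%, 52.4 to 70.6) started in a dense cluster, and without chromosome 13 the share was 40 of 281 (14.2%, 10.6 to 18.8), still above those of the other types over all autosomes.

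Peaks at tRNA genes made up a small part of the clusters and were concentrated in a few of them. Within 200 bp of a tRNA gene start lay 62 of the 4953 member peaks (1.25%) and 63 of the 35275 other peaks (0.179%). By size of the joined group the share was 0.144% for single peaks, 0.210% for groups of 2 to 4, 0.683% for clusters of 5 to 9 and 7.43% for clusters of 10 or more. The last value rests on few loci. Without chromosome 13 it was 1.62% (6 of 371 peaks), and all 6 of these peaks lay in the cluster at Zscan10. These 62 peaks fell in 20 clusters, of which 8 held 3 or more and together 45. Of these 8 clusters 6 lay within 2.31 Mb of chromosome 13, and the others on chromosome 17 (at Zscan10) and chromosome 5.

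The tRNA cluster on chromosome 13 with the most such peaks (chr13:21896712-21940585) had 10 of its 11 peaks at tRNA genes. In order along the chromosome the 11 scores were 850, 646, 787, 740, 825, 723, 626, 725, 748, 802 and 676. The peak at 725 was the one not at a tRNA gene. The cluster holds 15 tRNA genes, for isoleucine, methionine, lysine, aspartate, leucine, arginine, serine and glutamine. The cluster at chr13:21215306-21266036 had 10 peaks, 7 of them at tRNA genes and none in a protein-coding gene, with scores of 591 to 837. At Abt1, 7 of 12 peaks lay at tRNA genes, with 16 tRNA genes in the cluster.

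The tRNA peaks in clusters differed from member peaks as a whole in more than place. They had a median score of 734 (n = 62), and tRNA peaks outside clusters 739 (n = 63). Their median ratio of observed to expected CpG was 0.651 in clusters, against 0.261 over all member peaks, while their mean GC content was lower, at 49.3% ± 4.25 (SD) against 53.5% ± 4.75. Promoter peaks in clusters were close to the tRNA peaks in CpG ratio (0.609) and median score (739), but not in mean GC content (58.3%). Only 5 of the 62 tRNA peaks in clusters lay within 1 kb of a TSS of a RefSeq transcript. Of the 63 outside clusters 21 did. Those 63 peaks had a median CpG ratio of 0.712 and a mean GC content of 53.1% ± 6.75 (SD). Of the 105 tRNA genes in clusters 64 have at least 1 identical copy elsewhere on the autosomes, as do 227 of all 386 autosomal tRNA genes. Reads that lie wholly inside such genes cannot be told apart. How the ATAC-seq alignment treated such reads is not given in the sources used here.

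**Figure D2:**
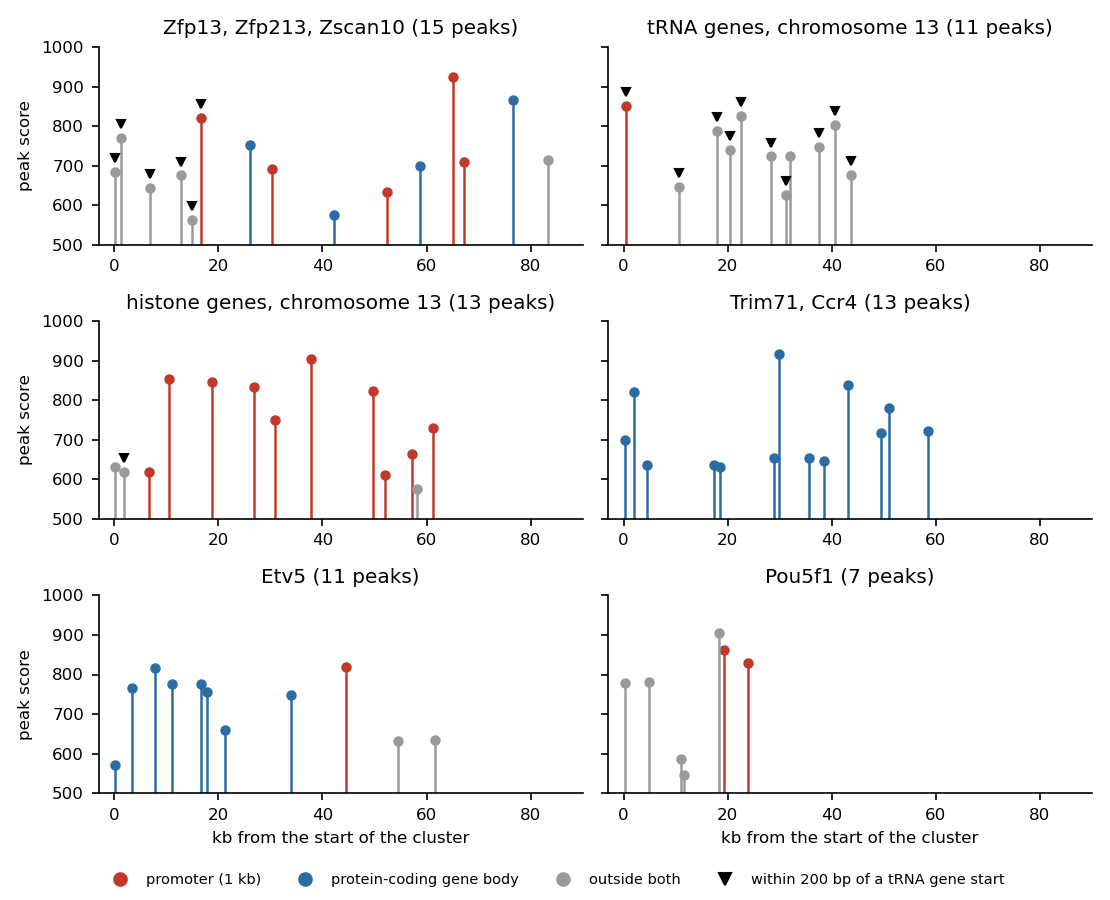
Peaks of 6 dense clusters, each drawn at its distance from the start of the cluster (kb) with its height as its score. Red marks promoters (within 1 kb of a TSS), blue protein-coding gene bodies, grey neither, and black triangles a tRNA gene start within 200 bp. The tRNA peaks occupy the first 17 kb at Zscan10 and 10 of 11 peaks in the tRNA cluster, the histone cluster is mostly promoters, and all 13 peaks at Trim71 lie in gene bodies.

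Replication-dependent histone genes, which are transcribed in S phase and supply the core and linker histones of new chromatin, filled 1 of the largest clusters. This family was counted after the values were seen. The cluster chr13:23524706-23586089 held the TSSs of 15 histone genes, and 10 of its 13 peaks lay at promoters, the most promoter peaks of any dense cluster. The promoter peaks scored 611 to 904. The remaining 3 scored 575, 618 and 632. Altogether 28 of 63 histone genes (44.4%, 32.8 to 56.7) had a TSS in a dense cluster, all of them in 3 clusters of chromosome 13, so that the genes are far from independent. The other 2 clusters had 7 peaks each, at H2ac11 (median score 658) and at H3c3 (median score 796). Histone genes of the same type can be similar in sequence, which was not measured here, and any reads shared between them are uncertain.

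Over all protein-coding genes, 897 of 20021 (4.48%) had a TSS in a dense cluster, and 1181 (5.9%) had a body that overlapped one. A TSS in a cluster is more frequent among genes that have an accessible promoter at all. Of the 20021 genes, 5765 had a peak within 1 kb of a TSS. Of these 5765 genes 698 (12.1%) lay in a cluster, a comparison that the rule favours, since the promoter peak can itself be a member. These shares are the background for the gene lists below. The lists were drawn up with earlier results of these data known, and the counts over them were not tested.

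Of 26 pluripotency genes, 7 (26.9%, 13.7 to 46.1) had a TSS in a dense cluster, and 9 had a body that overlapped one. Of the 10 with a promoter peak 5 lay in clusters. The 7 were Sall4 (9 peaks in the cluster), Pou5f1, Dppa3 and Dppa5a (7 each), and Nanog, Tfcp2l1 and Zfp42 (5 each). Sall4, a zinc finger factor of the pluripotency network, had 9 peaks over 56.2 kb, of which 7 lay upstream of its TSS. The peak scores at Sall4 were 667, 820, 554, 699, 620, 837, 776, 567 and 703.

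Pou5f1, which codes for OCT4, had 7 peaks within 24.4 kb (chr17:35485683-35510045), 6 of them upstream. Their scores were 779, 782, 586, 545, 906, 861 and 830 from the far end towards the gene. The highest 3 were the 3 nearest the TSS, and the pair in the middle was the lowest. The median of 782 was above the autosomal median of 696. Dppa3 and Dppa5a, genes expressed in germ cells and early embryos, had 7 peaks each, with scores of 612 to 795 and 632 to 805. The Dppa3 cluster also held the bodies of Gdf3 and Apobec1.

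Nanog, a homeodomain factor of the same network, lay in a cluster of 5 peaks that extended over Slc2a3, a glucose transporter gene. The scores were 850 at 4.73 kb upstream of the Nanog TSS, 805 at the promoter, and 645, 611 and 668 downstream. Tfcp2l1 and Zfp42 had 5 peaks each, with medians of 701 and 717. Esrrb, a nuclear receptor gene, had no TSS in a cluster, but 10 peaks lay together inside its body (chr12:86450794-86504626), 89.9 to 143 kb downstream of the annotated start, with scores of 571 to 842. The scores at Tet2, which had 5 peaks in its body, ran from 559 to 821.

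The cell type label was checked on the same list. Over all protein-coding genes, 5765 of 20021 had a promoter peak and 897 had a TSS in a dense cluster. Of 8 marker genes of embryonic stem cells, 4 (Pou5f1, Nanog, Zfp42, Sall4) had a promoter peak and 5 had a TSS in a dense cluster. Sox2, Klf4, Esrrb and Tfcp2l1 had no listed peak within 1 kb of a TSS. Of 16 fibroblast markers, 3 (Thy1, Pdgfrb, Vim) had a promoter peak, none of the 16 had a TSS in a dense cluster, which allows a share of up to 18.8% (3 counts of the total), and none overlapped one. The part of feeder cells in the list was not tested.

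The signalling lists of 11 to 14 genes each, which do not cover whole pathways, had 0 to 2 genes with a TSS in a dense cluster. Of 14 FGF genes 1 had a TSS in a cluster, Etv5, an ETS factor induced by FGF signalling, with 11 peaks over 62.0 kb and scores of 571 to 820. Of these 11 peaks 9 lay in the gene body. The 6 peaks inside Spred2, a feedback inhibitor of the same pathway, had a median score of 578.5, the lowest among the clusters at listed genes. Among 14 Nodal and BMP genes 1, the ligand Nodal, lay in a cluster, which also held a TSS of Pald1. This cluster had 8 peaks, 3 of them at promoters, and 7 of the 8 were upstream of the Nodal TSS. Their scores ran from 608 to 827. Among 14 Wnt genes 2 lay in clusters, the transcription factors Tcf7l2 (8 peaks, median 768) and Tcf7 (5 peaks, median 739). None of the 11 listed genes of the LIF and STAT3 pathway did (which allows up to 27.3%), although 4 had a promoter peak. Genes outside the lists also lay at clusters. The bodies of Lif and Osm overlapped a cluster of 8 peaks, and those of Wnt3a and Wnt9a a cluster of 7.

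None of 22 lineage regulators had a TSS in a dense cluster (which allows up to 13.6%), and 3 had a promoter peak. At Cdx2, a trophectoderm factor, a cluster of 5 peaks overlapped the gene from downstream, with scores of 547 to 692. None of 13 listed cohesin and ZBTB genes had a TSS in a dense cluster (which allows up to 23.1%). The ZBTB genes listed were Zbtb21, Zbtb7a, Zbtb7b and Zbtb11. Among ZBTB genes that were not listed, Zbtb8a had a TSS in a cluster of 7 peaks. The bodies of Zbtb12 and Zbtb32 overlapped clusters of 12 and 6 peaks, and unlisted ZBTB genes were not counted as a set. The body of Mau2, a subunit of the cohesin loader, overlapped a cluster of 5 peaks, of which 1 lay in that body. The cluster also overlapped the body of Gatad2a. Of 76 genes of cytosolic ribosomal proteins, 15 (19.7%, 12.3 to 30.04) had a TSS in a cluster. Among them Rps15 lay in a cluster of 9 peaks, and Rps21, Rps2, Rpl41 and Rps26 in clusters of 8. Among the 38 ribosomal protein genes with a promoter peak the share was 18.4% (9.22 to 33.4), and the interval holds the 12.1% of all such genes. The other 8 ribosomal protein genes in clusters had no peak at their own promoter. No olfactory receptor gene of 1101 lay in a cluster (which allows up to 0.272%), and 8 had a promoter peak.

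**Figure D3:**
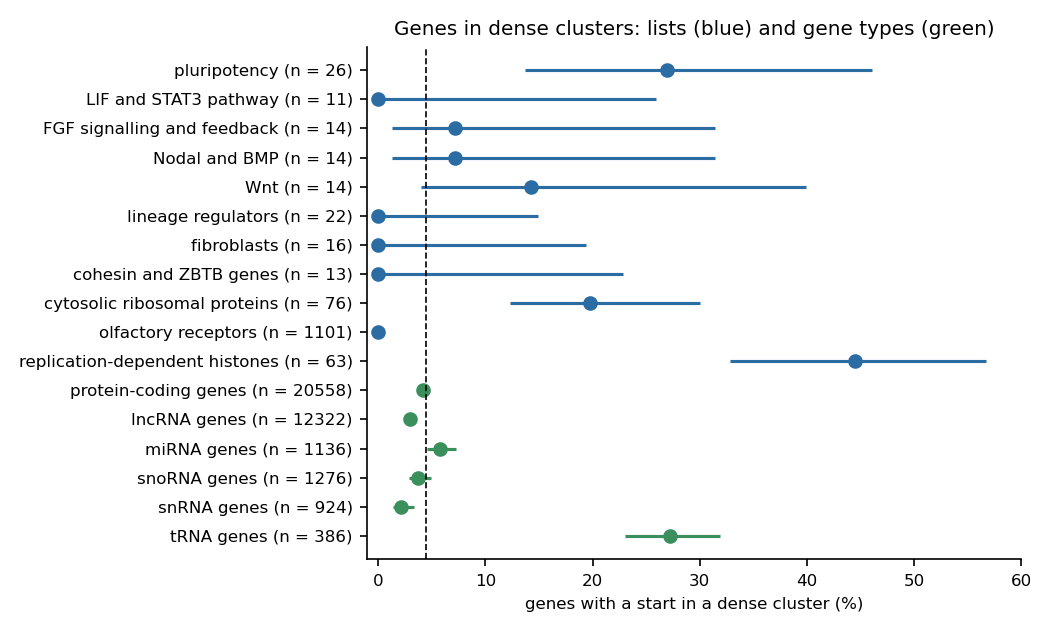
Percent of genes with a start in a dense cluster, for gene lists (blue, any RefSeq TSS) and for gene types (green, the gene's annotated start), with 95% Wilson intervals. The dashed line is the 4.48% of all protein-coding genes. Histone genes (44.4%), tRNA genes (27.2%), pluripotency genes (26.9%) and ribosomal protein genes (19.7%) stand to its right with their intervals, as do, narrowly, miRNA genes (5.72%).

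Dense clusters were mostly not rows of promoters, and their peaks lay closer to a TSS than other peaks did. Of the 4953 member peaks 831 lay at a promoter (16.8%, 15.8 to 17.8), against 5335 of 35275 other peaks (15.1%, 14.8 to 15.5). Over the 19 autosomes the difference was 0.733 ± 4.49 percentage points (mean ± SD), above 0 on 11 and below 0 on 8, so it was smaller than the spread between chromosomes. A further 38.8% of members lay in protein-coding gene bodies (others, 42.0%) and 44.4% outside both (others, 42.9%). The median distance to the nearest TSS was 10.3 kb for members and 18.9 kb for other peaks. By group size it was 24.4 kb for single peaks, 15.0 kb for groups of 2 to 4, 10.4 kb for clusters of 5 to 9 and 9.42 kb for those of 10 or more. The rule itself favours these shorter distances, since a peak joined to a promoter peak lies near that TSS. Of the 798 clusters 331 held no protein-coding TSS. Among members 345 clusters of 798 (43.2%) had no promoter peak, 233 had 1 and 220 had 2 or more. Overlap with protein-coding genes was none for 173 clusters, 1 gene for 341 and 2 or more for 284, and 129 clusters lay wholly inside a single gene.

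The score of a peak was slightly higher in dense clusters. The median was 706 for members and 694 for other autosomal peaks, a difference of 12. It was 1.5 when peaks above the median score alone were joined and 22 with at least 10 peaks in a cluster. The score was not used to choose the clusters. By group size the medians were 693, 696, 704.5 and 718, from single peaks to clusters of 10 or more, and the quartiles of the last class were 646 and 787. The difference over the 19 chromosomes was 11.2 ± 11.1 (mean ± SD) and it was above 0 on 16 of them. On chromosomes 6, 11 and 12 members were lower, by 17, 1 and 2.5. This difference is small beside the SD of the score over all autosomal peaks (91.3), and beside the median SD inside a cluster (87.9), so peaks of 1 cluster were nearly as unlike in score as peaks drawn from anywhere.

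The higher scores were seen away from promoters. Promoter peaks had a median of 739 in clusters and 740 elsewhere. In gene bodies the medians were 700 and 687, and outside both 702 and 690. A score of 800 or more was found in 20.3% of the 344 peaks away from promoters in clusters of 10 or more, in 13.2% of those in clusters of 5 to 9, and in 10.8% of those standing alone. Without the tRNA peaks the median of the class of 10 or more was 718, and without chromosome 13 it was again 718. The median was 708 for peaks at the ends of clusters and 705 for those between them. Peak width did not follow group size, with medians of 550, 542, 549 and 551 bp.

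**Figure D4:**
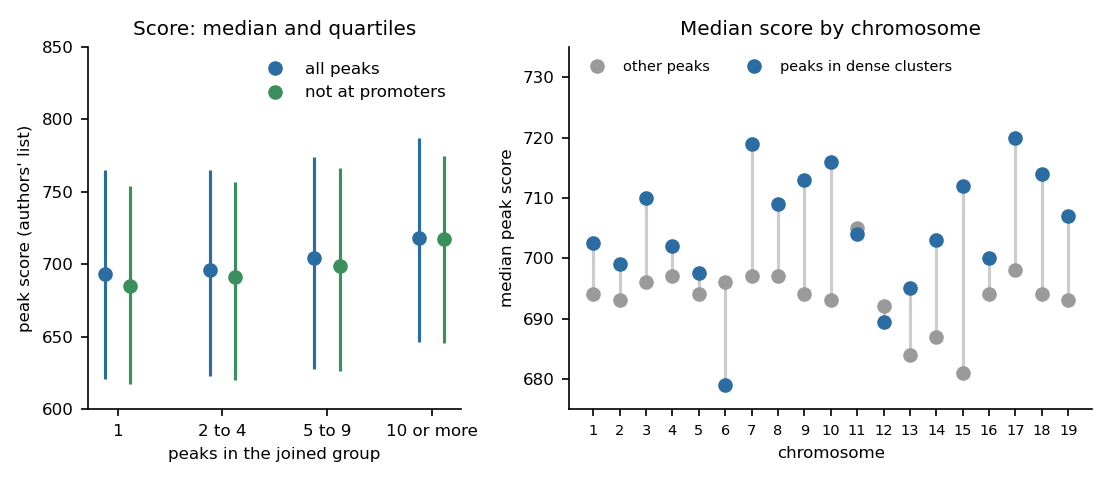
Left, median (point) and quartiles (line) of the peak score by the number of peaks in the joined group, for all peaks (blue) and peaks away from promoters (green). Right, median score of member peaks (blue) and other peaks (grey) on each of 19 chromosomes, where members are higher on 16.

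Base composition and motif content of member peaks were close to those of other peaks. Mean GC content was 53.5% ± 4.75 (SD) in members and 52.6% ± 4.99 in others. The difference over chromosomes was 0.772 ± 0.744 percentage points and above 0 on 16 of 19. It was below 0 on chromosomes 13 (-0.922), 1 (-0.734) and 6 (-0.247). Annotated repeats covered 18.11% of a member peak and 17.99% of another peak on average. In the middle 200 bp, on either strand, the KLF motif (GGGTGTGG) was found in 6.78% of members (6.12 to 7.52) and 5.62% of others (5.38 to 5.86). The octamer was found in 1.68% (1.35 to 2.07) and 2.08% (1.94 to 2.24), and the SOX motif (AACAAAG) in 5.96% (5.33 to 6.65) and 6.90% (6.64 to 7.17). In clusters of 10 or more the KLF share was 5.28% (3.51 to 7.86), an interval that holds both of these shares.

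The other 5 motifs, like the octamer and the SOX motif, differed by less than 1 percentage point between members and others. The CTCF consensus was found in 3.84% and 3.33%, the ESRRB motif (TCAAGGTCA) in 1.03% and 0.86%, the AP-1 motif (TGANTCA) in 8.22% and 8.11%, CCAAT in 23.9% and 24.2%, and the TEAD motif (GGAATG) in 14.1% and 14.9%. Motif matches of 5 to 9 letters occur in any DNA. The intervals treat peaks as independent, which neighbours are not.

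Dense clusters were unevenly spread over the autosomes. Chromosome 11 had 92 clusters (0.775 per Mb) with 17.7% of its peaks as members, and chromosome 14 had 18 (0.148 per Mb) with 7.28%. The mean over 19 chromosomes was 0.347 ± 0.155 (SD) clusters per Mb. Chromosome 11 also had the highest density of peaks of any chromosome (26.9 per Mb) and chromosome 3 the lowest (11.8 per Mb). Over the 19 chromosomes the density of clusters followed that of all peaks (Pearson's r = 0.918), from which clusters are made, and that of protein-coding genes (r = 0.673). These are descriptions of 1 list, in which each cluster is part of the peaks it is set against.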

How the data were processed

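ATAC-seq was performed by the authors on untreated V6.5 mESCs in 2 replicates, from gel-selected libraries with fragments of 1 or 2 nucleosomes. The submitters' processing notes name cutadapt 2.6, Bowtie2 2.3.5.1 and MACS2 2.1.1, and mm10 among the builds. How the ATAC-seq peaks were called, filtered and pooled is not given in the sources used here. The deposited list holds mm10 positions and a score per peak; the authors do not define the score, which ranks peaks within this list. The list has no counts, so depth is unknown.

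Peaks on chromosomes 1 to 19 were joined over gaps of at most 12 kb and 500 bp, and groups of 5 or more were kept. RefSeq genes, TSSs of curated transcripts and sequence came from GRCm38, the assembly of mm10. Promoters were within 1 kb of a TSS. The members and gene lists were chosen with earlier results of these data known. Genes named are those at the 20 clusters with most peaks (ties by shorter span, up to 3 each, by peaks in or within 1 kb of the body), then up to 6 per list with a TSS in a cluster, with ties kept. tRNA and histone genes were added after the values were seen. Some genes that this rule picks are not reported here. No test was run across peaks. Shares have 95% Wilson intervals, and differences are given with their spread over 19 chromosomes. Joining and distances were tested on simulated peaks, with 0 errors in 50 sets. Alternatives were other gaps, minimum sizes, scores, merging within 500 bp, and peaks left out. Python 3.11.15, numpy 2.4.6, pandas 2.3.3 and scipy 1.17.1 were used.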

Additional observations from a re-analysis of the deposited data

How the results depend on the processing

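The counts of clusters depend on the rule, and the differences between members and other peaks depend on it less. The numbers of clusters, member peaks and protein-coding genes with a TSS in a cluster were 509, 3027 and 494 with gaps of at most 10 kb, 1654, 8377 and 1421 with at least 4 peaks, 37, 417 and 78 with at least 10 peaks, 105, 584 and 162 with peaks above the median score, and 483, 2865 and 152 with promoter peaks left out before joining. With gaps of at most 15 kb the gene count was 1398. The promoter share of member peaks was 24.7% with peaks above the median score, 22.9% with a TSS within 2.5 kb, 15.0% with protein-coding TSSs, and 0% by construction with promoter peaks left out. The higher score and GC content of members kept their direction under every alternative run and moved by less than the SD over chromosomes, the score difference being 1.5 with peaks above the median score and 22 with at least 10 peaks. Leaving out the peaks at tRNA genes, an alternative chosen after seeing the data, gave 784 clusters and 4846 member peaks, and leaving promoter peaks out of both groups after joining, chosen likewise, gave a score difference of 13. No paired analysis was possible because the list pools both replicates, and for the same reason no replicate could be left out. With no values per replicate or counts, neither the depth nor the error between replicates behind any peak is known.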
